A study of Mus musculus with 2 samples.

Results

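The genes described here encode subunits of the protein complexes that carry cargo to melanosomes, measured by single-cell RNA sequencing in B16 F10, a mouse melanoma cell line that makes melanin. The 10 genes were chosen by symbol from the 32285 genes of the count matrix: Bloc1s1, Bloc1s2, Bloc1s4 and Dtnbp1 of BLOC-1, Hps3 and Hps5 of BLOC-2, Hps1 of BLOC-3, and Ap3b1, Ap3d1 and Ap3m1 of AP-3. Hps1 belongs to BLOC-3 and not to BLOC-2, so it is described apart. B16 F10 cells, which the labels call melanocytes, were seeded at 100 cells per cm2, kept until day 7 in DMEM (high glucose, 10% FBS) and sorted by side scatter, the submitters' measure of pigment. The sort gave a low pigment (LP) and a high pigment (HP) group, both from the same line and with no genetic change or treatment named in the labels. Each group gave 1 library made with the 10x Genomics 3' kit, which reads the polyadenylated end of an RNA and counts every captured molecule once by its random tag (UMI). With 1 library a group, no difference has a replicate check and none was tested. Levels are compared between libraries and not between genes, because capture at the 3' end differs from gene to gene.

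Melanosomes are relatives of lysosomes, and their enzymes arrive from endosomes by dedicated sorting machinery. AP-3 is an adaptor that gathers tyrosinase and other cargo into carriers at endosomes, and BLOC-1 works with BLOC-2 on a parallel route that takes Tyrp1 and copper and ion transporters to the maturing melanosome. BLOC-3 activates the small GTPases Rab32 and Rab38. Loss of subunits of any of these complexes gives diluted coat colour in mice, and in people loss of several of them causes Hermansky-Pudlak syndrome, with albinism and a bleeding tendency from defective platelet granules.

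The LP library held 1900 cells with 32437194 UMIs (median 16019.5 a cell) and the HP library 2136 cells with 28848691 UMIs (median 12557). No cell barcode was shared between the libraries among these cells. All 8 melanocyte markers searched, among them Mitf, Dct and Pmel, were detected in both libraries, with a sum of 11654 CPM in LP and 15202 CPM in HP. CPM are the UMIs of a gene divided by all UMIs of the library and multiplied by 1000000. The summed fibroblast, leukocyte, keratinocyte and erythroid markers stayed between 0.0308 and 2.15 CPM, with Col3a1, Adgre1, Krt10, Krt1 and Hbb-bs at 0 in both. Endothelial markers summed to 22.6 CPM in LP and 2.98 CPM in HP, nearly all of it Pecam1, and Emcn was at 0. Schwann cell markers, several of which melanoma cells also express, summed to 240 and 171 CPM, with none at 0. The libraries also differed in the authors' phase calls, with 23.5% (LP) and 44.4% (HP) of cells called G2M, and in Jun, which had 842 CPM in LP and 129 CPM in HP.

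Short stretches of the promoters are shown first, because Mitf, the melanocyte transcription factor that binds the hexamers CACGTG and CATGTG, had 221 CPM in LP and 506 CPM in HP. RefSeq windows on GRCm38.p6, from 250 bases before to 50 bases after each annotated start, were found for all 10 genes. The palindrome CACGTG stood in windows of 4 of them, Bloc1s1, Hps3, Hps5 and Hps1. It stood in none of the others, Bloc1s2, Bloc1s4, Dtnbp1, Ap3b1, Ap3d1 and Ap3m1. CATGTG, searched on both strands, stood in windows of 3, Bloc1s1, Bloc1s4 and Hps1, of which only the stretch of Bloc1s4 is printed. Each stretch below reads 5′ to 3′ on the gene's strand, which is the minus strand in every case, with the hexamer in capitals.
Bloc1s1, chr10:128923526-128923555: aggctcttgcgtCACGTGatactgcgatca
Bloc1s1, chr10:128923510-128923539: tgatactgcgatCACGTGacgccttccggg
Hps3, chr3:20035308-20035337: ggtcgcagcgctCACGTGatccggagcagc
Hps5, chr7:46796091-46796120: gggcgctgagggCACGTGaccggaaacgcc
Hps5, chr7:46796056-46796085: gggcctccggagCACGTGaccaccaccgcg
Hps1, chr19:42779962-42779991: atgtggctgagtCACGTGtcctacccggaa
Bloc1s4, chr5:36748744-36748773: gggctctctgggCATGTGgatagtaggctt
The 2 Bloc1s1 stretches overlap and begin their hexamers 19 and 3 bases before the start. In Hps3 the hexamer begins 15 bases before the start and in Hps1 1 base before it, while the pair in Hps5 lies 227 and 192 bases before it. The flanked form TCACGTGA, which contains CACGTG, was found for Bloc1s1 and Hps3. Counted by gene over the 32851 windows of all 27025 genes, CACGTG stood in 8.09%, CATGTG in 15.9% and TCACGTGA in 1.12%. Among the 6326 measured genes that matched a window, 12.9% held CACGTG and 9.42% held CATGTG. Those with CACGTG had a median log2 ratio of HP over LP CPM of −0.09 and those without it −0.08. For CATGTG the medians were −0.09 with it and −0.08 without it. A match describes letters and not a bound site.

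Compared between the sorts, BLOC-1 held the gene with the largest ratio, Bloc1s4, with 1.65-fold more RNA as a share of UMIs in HP, and AP-3 held the one with the smallest, Ap3m1, with 1.46-fold less. The other 8 genes lay between these, from 1.31-fold less (Hps1) to 1.17-fold more (Bloc1s1). A gene counted as measured at a mean of at least 10 CPM, which 9 of the 10 reached and Bloc1s1 did not. A gene was called by size alone, as higher with at least 25% more RNA in HP than in LP and as lower with at least 20% less. By this limit 1 of the 9 was higher, beside 10.9% of all 7849 measured genes. It made 2 of 9 lower, beside 23.4% of all measured genes. The numbers of members past the limit were thus near what the whole transcriptome showed. With the limit at 1.5-fold, 1 member was higher and 0 were lower, beside 3.25% and 8.08% of all genes. The median log2 ratio was −0.18 over the 9 genes and −0.08 over all measured genes. After every ratio was divided by that of the median gene, the shares of all genes were 15.8% higher and 17.3% lower, and 1 member was on each side.

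**Figure D1:**
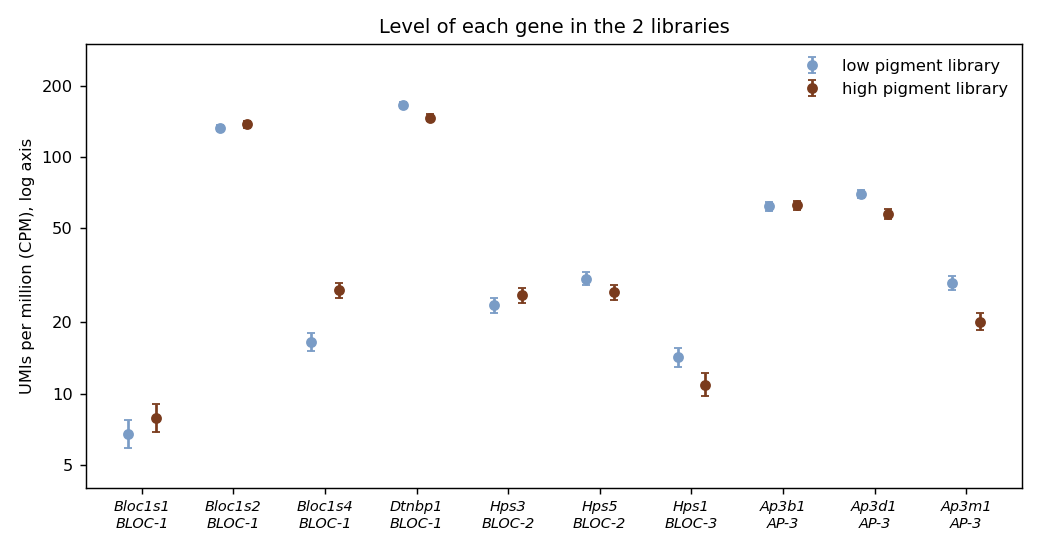
Level of each of the 10 genes in the LP (blue) and HP (brown) library, in CPM on a log axis, with exact Poisson 95% intervals that cover counting error only. The intervals of Bloc1s4 (16.5 against 27.3 CPM) and Ap3m1 (29.3 against 20.1 CPM) lie farthest apart.

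BLOC-1 is an octamer of small, mostly coiled-coil proteins. Bloc1s4, the gene mutated in cappuccino mice, is a gene of 1 exon on GRCm38 chromosome 5 (36747378 to 36748650, minus strand). It had 536 UMIs, or 16.5 CPM (15.2–18.0), in LP and 788 UMIs, or 27.3 CPM (25.4–29.3), in HP. These intervals do not overlap, and the ratio was 1.65 (1.48–1.85). Counted per cell, without scaling to the total, the means were 0.282 and 0.369 UMIs, so Bloc1s4 was the only one of the 10 genes with more UMIs per cell in HP, where cells had fewer UMIs in all.

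The other BLOC-1 genes differed less. Dtnbp1, which encodes dysbindin and is mutated in sandy mice, had 166 CPM (161–170) in LP and 147 CPM (142–151) in HP. Its ratio of 0.884 (0.849–0.920) had an interval below 1 but inside the limit. Bloc1s2 had 133 and 137 CPM, with a ratio of 1.03 whose interval (0.990–1.08) held 1. Bloc1s1, which like Bloc1s2 also encodes a subunit of BORC, the complex that positions lysosomes, had 219 and 228 UMIs, or 6.75 and 7.90 CPM, a ratio of 1.17 (0.968–1.42). Its annotated exons share 720 bases with those of Rdh5 on the same strand, 257 of them in the last 500 bases of the gene, so reads there may not have been counted for it. The median log2 ratio of the 3 measured BLOC-1 members was 0.05.

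Of the 4 BLOC-1 subunits outside the 10 genes, Bloc1s5 and Snapin had less RNA in HP, opposite to Bloc1s4. Bloc1s5, the gene of muted mice, had 427 UMIs (13.2 CPM) in LP and 194 UMIs (6.72 CPM) in HP, 1.96-fold less (1.65–2.33), and its mean of 9.94 CPM fell just short of the minimum. Snapin, named for binding a synaptic SNARE, had 23.0 against 15.6 CPM (1.47-fold less, 1.31–1.66). The last 500 bases of Snapin overlap exons of Ilf2 on the opposite strand by 354 bases, and the sources used here do not say whether counting used strand. Bloc1s6, the gene of pallid mice, had 21.2 and 22.9 CPM, and Bloc1s3 had 64 and 53 UMIs. Of the 5 measured BLOC-1 subunits, 1 was higher, 1 was lower and 3 were neither, beside 10.9% higher and 23.4% lower among all measured genes, and nothing is read from so few.

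Both measured BLOC-2 genes stayed inside the limit. Hps3, the gene of cocoa mice, had 23.6 CPM (765 UMIs) in LP and 26.1 CPM (752 UMIs) in HP, with a ratio of 1.11 whose interval (0.998–1.22) reached 1. Hps5, the gene of ruby-eye 2 mice, had 30.6 and 26.8 CPM, a ratio of 0.876 (0.796–0.964). The median of their log2 ratios was −0.02. The third subunit gene, Hps6, had 39 and 53 UMIs, too few to place its ratio (0.992–2.37) on either side of 1.

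BLOC-3 is a dimer of Hps1 and Hps4. Hps1, the gene of pale ear mice, had 463 UMIs or 14.3 CPM (13.0–15.6) in LP and 315 UMIs or 10.9 CPM (9.75–12.2) in HP, 1.31-fold less (1.13–1.51). With every cell weighted equally, by the mean of its share of UMIs, the log2 ratio was −0.31 in place of −0.39, just inside the limit. It was −0.15 in 1 random thinning of every cell to 7500 UMIs, which leaves few Hps1 UMIs, and −0.11 among cells with 10000 to 15000 UMIs. Hps4, the gene of light ear mice, had 34.9 and 30.8 CPM, a ratio of 0.884 (0.809–0.966).

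AP-3 is a tetramer of a delta, a beta, a mu and a sigma subunit, and the mu subunit reads the tyrosine-based sorting signals of cargo tails. Ap3m1, which encodes the ubiquitous mu subunit, had 952 UMIs or 29.3 CPM (27.5–31.3) in LP and 580 UMIs or 20.1 CPM (18.5–21.8) in HP. The intervals do not overlap, and the gene had 1.46-fold less RNA (1.32–1.62) in HP. Per cell the means were 0.501 and 0.272 UMIs. Ap3m1 lies on GRCm38 chromosome 14 (21031442 to 21052508, minus strand), and its exons overlap those of Vcl on the opposite strand by 2090 bases, 355 of them in its last 500 bases. Vcl had a ratio of 0.843 (0.769–0.923), and its part in the Ap3m1 counts was not tested.

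Ap3d1, which encodes the delta subunit and is mutated in mocha mice, had 69.6 CPM (66.8–72.6) in LP and 57.4 CPM (54.7–60.2) in HP. It had 1.21-fold less RNA (1.14–1.29), which lies just inside the limit. Ap3b1, which encodes the beta subunit and is mutated in pearl mice, had 62.0 and 62.5 CPM, a ratio of 1.01 (0.945–1.07). The delta, beta and mu subunit genes thus had ratios of 0.824, 1.01 and 0.685, whose counting intervals do not overlap. These intervals cover counting error only. How often other genes differ from each other in this way was not counted, so nothing is read from it. The median log2 ratio of the 3 AP-3 members was −0.28, and that of all 5 measured AP-3 subunits −0.10.

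The remaining AP-3 genes bring in the sigma subunits and the forms known mainly from neurons. Ap3s1, a sigma subunit gene, had 66.3 CPM in LP and 81.5 CPM in HP, 1.23-fold more (1.16–1.30). Ap3s2, the other sigma subunit gene, had 32.2 and 30.1 CPM, a ratio of 0.932 (0.851–1.02). Ap3m2, the neuronal mu subunit, had 7.43 and 5.06 CPM, a ratio of 0.681 (0.551–0.840), and Ap3b2, the neuronal beta subunit, had 5 UMIs in LP and 0 in HP. Over all 20 subunits of the 4 complexes 14 were measured, of which 1 was higher, 3 were lower and 10 were neither, near the 10.9% and 23.4% of all measured genes.

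**Figure D2:**
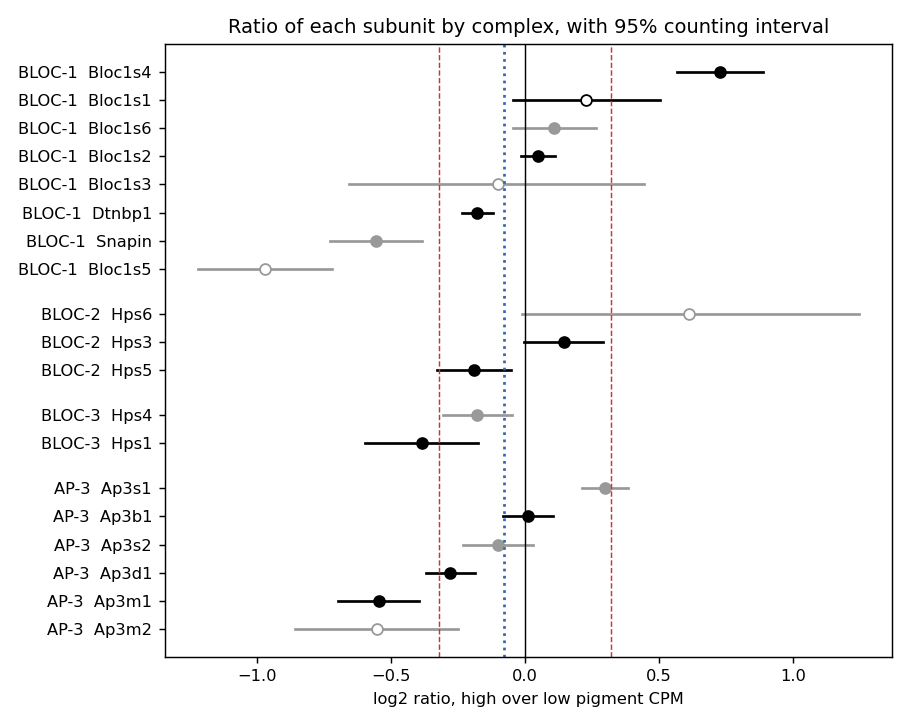
Log2 ratio of HP over LP CPM for 19 subunits of the 4 complexes, with exact 95% counting intervals. Black marks the 10 chosen genes, grey the other subunits and open points genes under 10 CPM, and Ap3b2 is left out because it had 0 UMIs in HP. Dashed lines mark the limits of 25% more and 20% less and the dotted line the median of all measured genes (−0.08). Of the chosen genes, Bloc1s4 lies beyond the right and Ap3m1 and Hps1 beyond the left dashed line. Of the other subunits, Hps6 (0.61) lies beyond the right line, and Bloc1s5 (−0.97), Snapin (−0.56) and Ap3m2 (−0.55) lie beyond the left.

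The authors called each cell G1, S or G2M, and the comparison of the sorts was repeated within each call. Bloc1s4 had 15.9, 16.1 and 17.8 CPM in LP cells called G1, S and G2M, and 25.8, 28.9 and 27.5 CPM in HP cells. Every HP value lay above every LP value, and the interval of the lowest of the former (22.6–29.5) did not reach that of the highest of the latter (15.2–20.8). How many of all genes separate in this way was not counted, so nothing beyond the ratio between the libraries is read from it. Within a library no neighbouring pair of phases had separate intervals. The ratios were 1.62 in G1, 1.80 in S and 1.55 in G2M.

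Ap3m1 gave the opposite picture. It had 29.0, 29.3 and 29.8 CPM in LP cells called G1, S and G2M, and 21.9, 18.5 and 19.7 CPM in HP cells. All LP values lay above all HP values, and the interval of LP G1 cells (25.9–32.4) stood above that of HP G1 cells (18.9–25.3). The ratios were 0.755, 0.632 and 0.660. As for Bloc1s4, the number of all genes that separate in this way was not counted.

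Ap3d1 varied with phase as well as with the sort. In LP cells it had 76.1 CPM in G1, 74.3 CPM in G2M and 60.6 CPM in S, and the S interval (56.3–65.1) lay below that of G2M (68.8–80.1). HP cells had 59.8, 58.5 and 51.5 CPM in the same order, with overlapping intervals between neighbours. The ratio was 0.785 in G1, 0.787 in G2M and 0.851 in S.

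Hps1 had 14.6, 13.8 and 14.5 CPM in LP cells called G1, S and G2M, with overlapping intervals. HP cells had 9.58 CPM in G1, 13.5 CPM in S and 10.6 CPM in G2M. The ratio was 0.654 (0.495–0.858) in G1, 0.984 (0.747–1.29) in S and 0.731 (0.575–0.930) in G2M. These intervals overlap, and whether the ratio differs between phases was not tested.

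The other members were ordered over the 6 combinations of library and phase. Dtnbp1 ran from 142 CPM in HP G2M cells to 171 CPM in LP S cells, and Bloc1s2 from 123 CPM in LP S cells to 139 CPM in LP G1 cells. Ap3b1 was highest in HP G2M cells at 66.9 CPM and lowest in HP S cells at 55.0 CPM. Hps5 ran from 25.4 CPM in HP G1 cells to 31.4 CPM in LP G1 cells, and Hps3 from 22.5 CPM in LP S cells to 26.9 CPM in HP S cells. Bloc1s1 ran from 5.46 CPM in LP G2M to 9.58 CPM in HP S cells. For each of these 6 genes neighbours in the order had overlapping intervals. The highest and the lowest combination had separate intervals for Bloc1s1 (7.27–12.4 and 4.05–7.20), Bloc1s2 (132–146 and 117–129), Dtnbp1 (164–179 and 136–149) and Ap3b1 (62.7–71.3 and 49.3–61.2). Those of Hps3 and Hps5 overlapped. These pairs were picked after ordering 6 values, which favours separate intervals. How many of all genes separate in this way was not counted, so nothing is read from this split.

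By the same limit, 1 measured member was higher in HP in each phase, namely Bloc1s4, beside 11.8% of all measured genes in G1, 13.6% in S and 11.1% in G2M. In G1, 3 were lower (Hps1, Ap3d1 and Ap3m1), beside 25.9% of all genes. In S, 1 was lower (Ap3m1), beside 22.2%, and in G2M 3 were lower (Hps1, Ap3d1 and Ap3m1), beside 26.1%. Within LP, S against G1 cells had 0 members higher and 1 lower, Ap3d1 (0.796, 0.720–0.880), beside 13.7% and 11.6% of all genes. G2M against G1 cells had 0 on either side there, beside 15.5% and 9.2%. Within HP, S against G1 cells had 1 higher, Hps1 (1.41, 1.03–1.94), and 0 lower, beside 15.6% and 7.08%, and G2M against G1 cells 0 on either side, beside 11.6% and 4.08%. The phase calls were made from the same cells, and these values are descriptions.

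**Figure D3:**
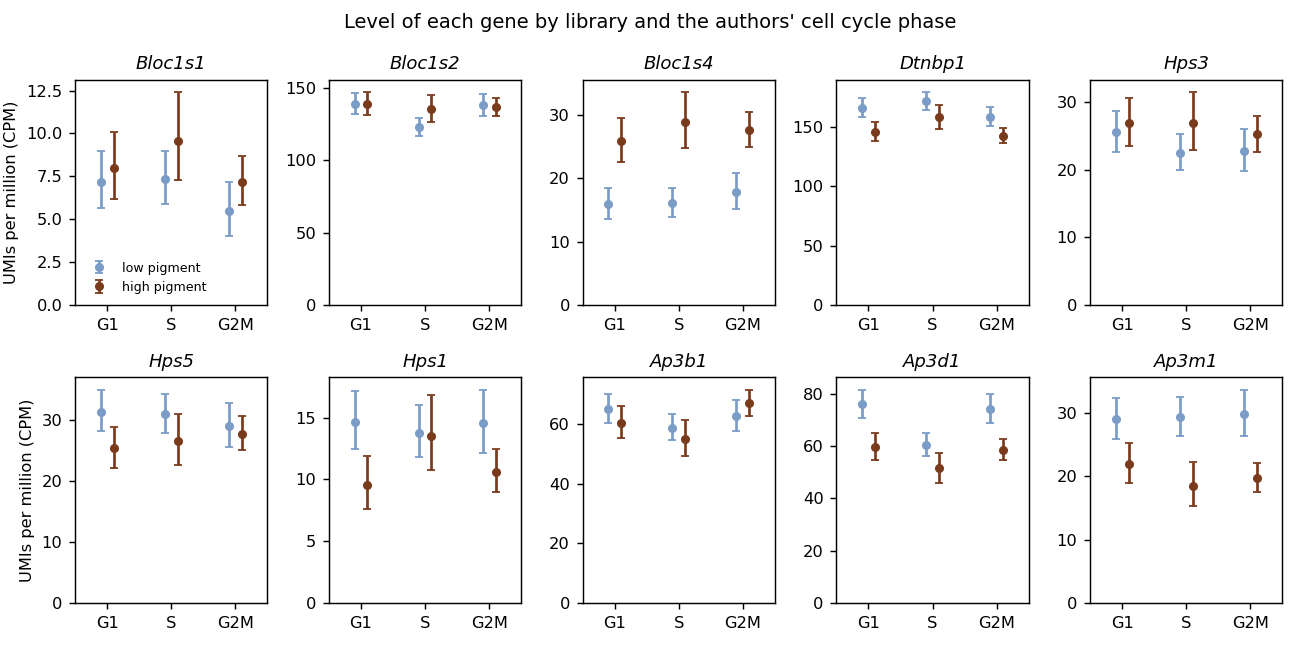
Level of the 10 genes in CPM in LP (blue) and HP (brown) cells that the authors called G1, S or G2M, with exact Poisson 95% intervals. Bloc1s4 is higher and Ap3m1 lower in HP cells in all 3 phases, and the Hps1 values of both libraries meet in S (13.8 and 13.5 CPM).

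The authors' 4 clusters follow the sort closely. Clusters 1 and 2 held 1845 of the LP cells and clusters 0 and 3 held 2043 of the HP cells. The clusters were made from the expression of these cells, and their values are given as a description. Bloc1s4 had 15.9 and 16.8 CPM in the LP cells of clusters 1 and 2, and 28.5 and 23.5 CPM in the HP cells of clusters 0 and 3. Ap3m1 had 28.7 and 29.8 CPM in the former, and 18.3 CPM (16.6–20.2) and 25.3 CPM (21.3–30.0) in the latter. The intervals of the 2 HP clusters do not overlap, and that of cluster 3 overlaps those of the LP clusters (26.1–31.5 and 27.2–32.6). Ap3d1 had 73.5 CPM (69.3–77.9) and 66.2 CPM (62.3–70.3) in the LP cells of clusters 1 and 2. It had 54.5 CPM (51.4–57.6) in HP cells of cluster 0 and 69.9 CPM (63.0–77.3) in those of cluster 3, so the HP cells of cluster 3 lay within the LP levels. Of the HP cells in cluster 3, 466 of 523 were called G1, against 217 of 1520 in cluster 0. Over all HP cells called G1, Ap3d1 had 59.8 CPM (54.7–65.1) and Ap3m1 21.9 CPM (18.9–25.3). The part of phase in the cluster values was not tested. Hps3 had 24.8 CPM (22.8–26.9) in the HP cells of cluster 0 and 32.0 CPM (27.4–37.2) in those of cluster 3. For all members other than Ap3m1, Ap3d1 and Hps3 the intervals of the 2 HP clusters overlapped. How many of all genes have separate intervals between these clusters was not counted, so nothing is read from this.

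Few cells crossed this division. The 55 LP cells in clusters 0 and 3 had 20 UMIs of Bloc1s4, or 23.0 CPM (14.0–35.5), and 28 UMIs of Ap3m1, or 32.2 CPM (21.4–46.5). The 93 HP cells in clusters 1 and 2 had 21.7 CPM (13.8–32.6) of Bloc1s4 and 31.2 CPM (21.5–43.8) of Ap3m1. At this depth the Bloc1s4 intervals span the levels of both libraries. The Ap3m1 value of the 93 HP cells rests on 33 UMIs, and its interval overlaps that of the LP library (27.5–31.3). It also overlaps that of the whole HP library (18.5–21.8), which includes these cells. It lies just above that of the HP cells in clusters 0 and 3 (18.1–21.4). These cells were placed in their clusters by their expression, so nothing is read from their levels.

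In single cells these RNAs were sparse. Shares of cells were compared for these genes only, and how many of all genes have separate intervals was not counted. After thinning every cell to 7500 UMIs, a Bloc1s4 UMI was found in 11.0% of LP cells (9.63–12.5) and 17.7% of HP cells (16.1–19.4), or 23.7% and 29.3% without thinning. For Ap3m1 the shares were 19.2% (17.4–21.0) and 14.2% (12.8–15.8) after thinning, and 38.8% and 23.5% before. Ap3d1 had 42.3% (40.1–44.6) and 34.9% (32.9–36.9), and Dtnbp1 70.3% (68.2–72.3) and 65.5% (63.5–67.6). The Hps1 shares of 9.47% (8.19–10.9) and 8.57% (7.41–9.84) overlapped after thinning, against 21.2% and 13.7% before it. Thinned shares of Bloc1s1 (4.42% and 5.29%), Bloc1s2 (61.4% and 60.2%), Hps3 (16.8% and 18.2%), Hps5 (19.9% and 17.3%) and Ap3b1 (35.5% and 36.2%) also had overlapping intervals. These are shares of cells with a UMI, not of cells expressing the gene, and the data hold no cell type that lacks these genes from which free RNA could be read.

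**Figure D4:**
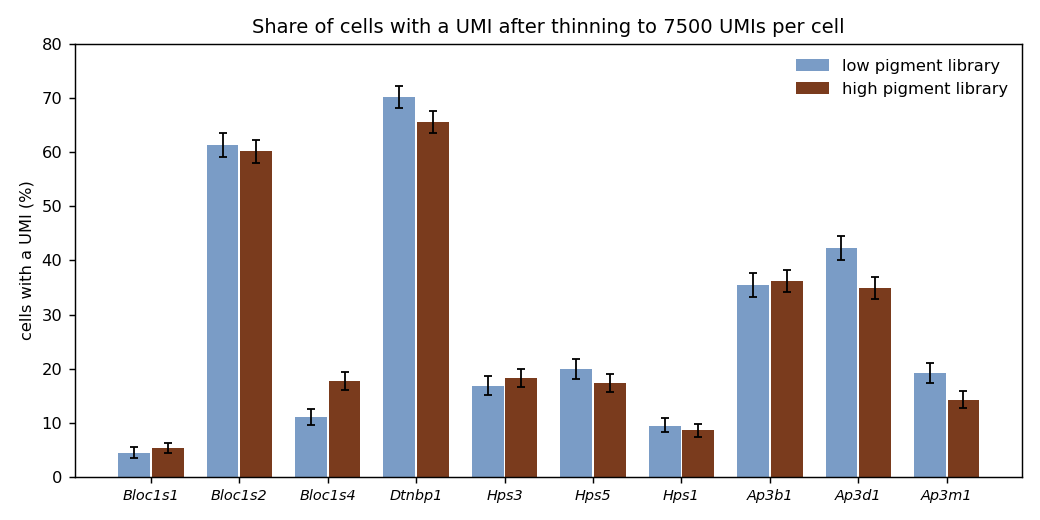
Share of cells with at least 1 UMI of each gene after thinning to 7500 UMIs a cell, in percent, for 1900 LP (blue) and 2136 HP (brown) cells, with exact Clopper-Pearson 95% intervals. The intervals of the 2 libraries are separate for Bloc1s4, higher in HP cells, and for Ap3m1, Ap3d1 and Dtnbp1, lower in HP cells. How many of all genes have separate intervals was not counted.

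Counted over complexes at the same thinned depth, 90.0% of LP cells (88.6–91.3) and 88.5% of HP cells (87.1–89.8) had a UMI of at least 1 of the 4 BLOC-1 members. For the 3 AP-3 members the shares were 69.3% (67.1–71.3) and 64.7% (62.6–66.7), and for the 2 BLOC-2 members 33.1% and 32.6%. A median of 3 of the 10 genes was detected in a cell of either library, with a range of 0 to 7, and 31 LP and 50 HP cells had none. The variance of the thinned UMIs over cells divided by their mean, which is 1 for pure counting, ran from 0.973 (Ap3m1) to 1.12 (Hps5) in LP and from 0.988 (Ap3m1) to 1.19 (Bloc1s2) in HP. At the low means of most of these genes (0.0468 to 0.549 thinned UMIs a cell outside Bloc1s2 and Dtnbp1) this ratio can show little spread beyond counting.

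Depth, phase and Jun moved with the sort, and part of this can be measured. In cells of 10000 to 15000 UMIs, 696 LP and 938 HP, the log2 ratio of Bloc1s4 was 0.68 beside 0.73 in all cells, that of Ap3m1 −0.48 beside −0.55, and that of Ap3d1 −0.31 beside −0.28. Bloc1s4 and Ap3m1 passed the limit under all 11 alternative settings, with log2 ratios of 0.56 to 0.84 and of −0.66 to −0.40. Hps1 passed it under 5, Bloc1s1 (toward higher) under 4 and Ap3d1 under 3 of them. How many of all measured genes pass it under all 11 settings was not counted. Bloc1s4 and Ap3m1 were the members with the largest and the smallest ratio, and most settings use the same UMIs again. The lowest value of Bloc1s4 came with the trend of gene length removed. The 1570 measured genes with the shortest exon length (183 to 2561 bases) had a median log2 ratio of 0.0039 and the next 1570 (2562 to 3967 bases) one of −0.12, and Bloc1s4 has 1273 exonic bases. The part of Jun and of Pecam1 in these ratios was not tested.

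**Figure D5:**
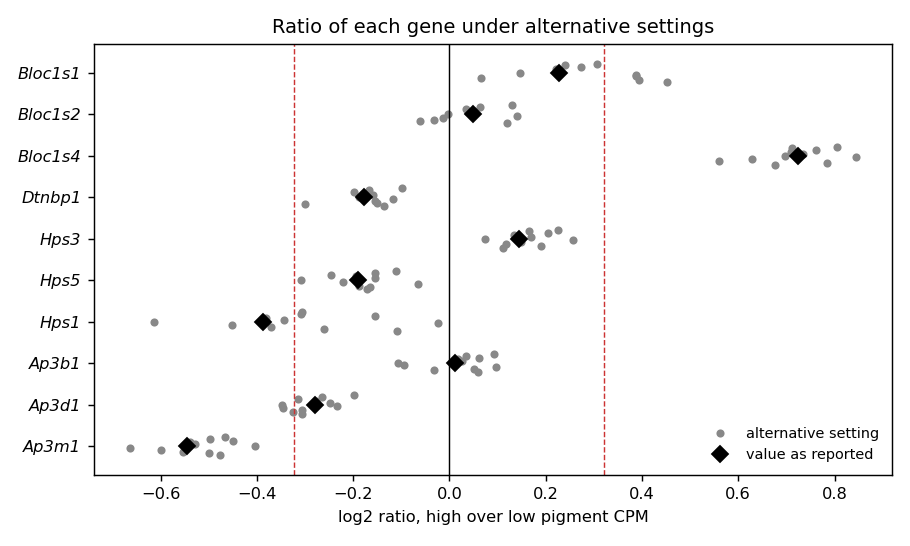
Log2 ratio of HP over LP CPM for the 10 genes as reported (diamond) and under 11 alternative settings (grey points, spread vertically for legibility), with dashed lines at the call limits. Bloc1s4 stays right and Ap3m1 left of these lines in every setting, while Hps1 runs from −0.61 to −0.02. How many of all genes stay beyond a line in every setting was not counted.

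Partner genes from 7 further lists were described in the same way. Each list is short, its counts stand beside the 10.9% higher and 23.4% lower of all measured genes, and no list was tested for a difference from them. The cargo list had 10 of 11 members measured, with 1 higher, 0 lower and a median log2 ratio of 0.13. Among the measured genes its largest ratios were those of Dct (1.37) and Tyrp1 (1832 CPM in LP and 2286 CPM in HP, just under the limit), both melanin enzymes, and its smallest those of the fibril protein gene Pmel (0.898) and the exchanger gene Slc24a5 (0.899). Tyrosinase, which AP-3 sorts, had 126 and 122 CPM of Tyr RNA. Oca2, an ion transporter gene and BLOC-1 cargo, had 66 and 86 UMIs, too few to count as measured, with a ratio of 1.47 (1.05–2.05).

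All 5 AP-2 genes, which serve endocytosis at the cell surface, were measured and 0 passed the limit, with a median of 0.06, Ap2s1 (1.19) and Ap2a1 (1.11) highest and Ap2b1 (0.970) and Ap2a2 (0.995) lowest. Of 8 AP-1 genes, which serve the trans-Golgi network and endosomes, 5 were measured and 0 passed it, with a median of −0.11, Ap1s1 (1.10) and Ap1g1 (1.05) highest and Ap1s2 (0.870) and Ap1b1 (0.918) lowest. BORC, which shares Bloc1s1, Bloc1s2 and Snapin with BLOC-1, was split over its 5 other genes: Borcs8 (1.33-fold more) was higher, Borcs5 (1.52-fold less) and Borcs6 (1.40-fold less) were lower, Borcs7 had a ratio of 1.15 and Kxd1 one of 0.911.

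Downstream of sorting, the HOPS and CORVET tethering complexes had all 8 genes measured, with 1 higher and 2 lower, near the shares of all genes. Vps18 was 1.35-fold higher and Tgfbrap1 had a ratio of 1.09, while Vps39 had 13.6 against 19.6 CPM and Vps16 15.8 against 21.8 CPM in HP against LP. Of the SNAREs and the motor gene Kif13a, all 6 were measured, with 1 higher and 2 lower. Stx3, a syntaxin gene, had 9.87 CPM in LP and 19.1 CPM in HP, 1.94-fold more (1.69–2.23), and Kif13a had a ratio of 0.919. Snap23 and Vamp3, the SNAREs with the smallest ratios, had 0.750 and 0.761. Of the 5 Rab and effector genes 2 were measured, Rab38, the melanosomal Rab activated by BLOC-3 (0.838, 0.807–0.870), and Rab9 (0.834), and neither passed the limit.

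Genes with the most similar profile were ranked by the Euclidean distance of log2 CPM, centred on each gene, over the 6 combinations of library and phase, among 3047 genes of at least 50 CPM. For Bloc1s4 these were Arpp19, Ninj1 and Cnih4 at distances of 0.133, 0.141 and 0.178. For Ap3m1 they were Dtd1, Eif4a2 and Ppp1r10 at 0.0968, 0.133 and 0.135. The 6 combinations come from only 2 libraries, so this likeness rests mainly on the ratio between the sorts.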

How the data were processed

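UMI counts per gene and barcode were used as the authors deposited them. The submitters' processing notes name Cell Ranger 6.1.2 and mm10, and both libraries share 1 aggregated matrix. The sources used here do not say whether depth was equalised or how strand and reads matching several genes were handled. The authors' deposited cell table gave the percent of mitochondrial UMIs, the sort, phase and cluster of 4036 of 5818 barcodes (at least 7500 UMIs and under 10% mitochondrial). Counts were summed per library and divided by total UMIs (CPM). Ratios have exact conditional binomial, CPM exact Poisson and shares exact Clopper-Pearson 95% intervals, covering counting error only. A count of 3 UMIs, the detection floor, was 0.0925 CPM in the low and 0.104 CPM in the high pigment library. Scrublet in scanpy 1.11.5 marked 18 and 15 doublets, which were kept. Genes and lengths were matched by ID to GENCODE M21. All 10 members were named, with the other 10 subunits and up to 2 genes of largest and smallest ratio per further list. Members and lists were chosen with earlier results of these data known. Intervals were tested on simulated counts.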

Additional observations from a re-analysis of the deposited data

How the results depend on the processing

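No paired analysis was possible because each group has 1 library. The count of 1 member higher was unchanged under every alternative run. The count of lower members was 1 in place of 2 with the median gene set to 1, with shares averaged per cell, after thinning, in S cells and in cells of 10000 to 15000 UMIs (chosen after seeing the data), and 0 at 1.5-fold. In the first 5 of these Hps1 was the gene inside the limit. It was 3 in G1 and in G2M cells, where Ap3d1 was added, and with the expression trend removed the 2 were Ap3m1 and Ap3d1 (−0.32), with Hps1 at −0.26. The median log2 ratio of BLOC-1 members, 0.05 as reported, became 0.13 after setting the median gene to 1, 0.14 in S cells, 0.12 at 10000 to 15000 UMIs, −0.032 with the length trend and −0.062 with the expression trend removed. The median of all measured BLOC-1 subunits, also 0.05 as reported, ran from −0.11 in S cells to 0.13 with the median gene set to 1. The BLOC-2 median ranged from −0.12 to 0.06 and that of the AP-3 members from −0.35 to −0.20. The median of all measured AP-3 subunits ran from −0.17 to 0.06. No member past the limit changed sign, while Bloc1s2 (−0.06 to 0.14) and Ap3b1 (−0.11 to 0.10) crossed 0. Of 110 member ratios 95 stayed inside their counting interval and 15 did not, and all 80 ratios between phases stayed inside. The 20 shares of cells were all higher without thinning, as they must be because thinning only removes UMIs. Without it, LP had the larger share for Bloc1s1 (10.7% against 9.69% in HP), Hps3 (32.3% against 28.9%) and Ap3b1 (63.0% against 53.9%). For these genes the thinned shares were larger in HP, with overlapping intervals, and the other members kept their direction. Genes under 10 CPM, such as Hps6, were limited by depth.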
